A study of Mus musculus with 4 samples.

Results

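Of the 10 genes followed here, 3 are scavenger and hyaluronan receptors of sinusoidal endothelium (Stab1, Stab2 and Lyve1). The other 7 are markers of blood vessel endothelium (Kdr, Tek, Tie1, Egfl7, Vwf, Pecam1 and Cdh5). Together the 10 genes mark the endothelium of the liver. They were found by symbol among the non-control probes of the array, or by the transcript accession of the probe where the file carried an older name, as for Lyve1, which the files call Xlkd1. All 10 were among the 18044 genes tested. They are measured by 18 probes of 60 bases, and 14 of these probes passed the filter on background.

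The livers labelled Plin2-ASO came from mice 6, 7, 9 and 10, given an ASO against Plin2, the lipid droplet coat protein perilipin 2. An ASO, or antisense oligonucleotide, is a synthetic strand that pairs with an RNA and so reduces its amount. The control livers came from mice 1, 2, 4 and 5, treated with a scrambled control ASO. All mice were male C57BL/6 animals fed a high-fat diet, and both ASOs were injected into the abdomen at 25 mg/kg, 2 times a week over 4 weeks. Total RNA of whole liver was amplified and hybridised to 4 Agilent mouse arrays of 2 colours, each with 1 liver labelled Plin2-ASO in Cy3 (green) and 1 control liver in Cy5 (red). Every array used the same dye for the same group, so the treatment and any dye effect of 1 probe cannot be told apart, and the labels used here give no age.

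Liver sinusoids are capillaries whose endothelium has open pores and no complete basement membrane, and which clears waste molecules from blood. The stabilins Stab1 and Stab2 are scavenger receptors of these cells, Stab2 and Lyve1 bind the polysaccharide hyaluronan, and Lyve1 also marks lymphatic vessels. In blood vessels, Kdr is the main receptor for the growth factor VEGF-A. Tek (Tie2) is the receptor of the angiopoietins and Tie1 its partner. Cdh5 (VE-cadherin) and Pecam1 (CD31) hold neighbouring cells together, Vwf tethers platelets, and Egfl7 is a secreted protein of endothelial matrix.

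A first set of sequences shows where the measurements sit. These are array probes of 4 members that fell, as the scanner files give them, and no letters are in capitals because no part is singled out. The Tie1 probe (chr4:117847966-117848025, minus strand) and the Pecam1 probe (within chr11:106790116-106791969, minus strand) stand for their genes. The probes of Stab1 (within chr14:28589152-28589295, minus strand) and Vwf (chr6:125708635-125708694, plus strand) are second probes that check the first. Positions come from the files and refer to mouse build mm7. Those of the Pecam1 and Stab1 probes span 1854 and 144 bases, more than the 60 bases of the probe. Their place in exons was not analysed here.
Tie1: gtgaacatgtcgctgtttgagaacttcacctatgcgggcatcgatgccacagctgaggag
Pecam1: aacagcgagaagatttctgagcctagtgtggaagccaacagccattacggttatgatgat
Stab1, second probe: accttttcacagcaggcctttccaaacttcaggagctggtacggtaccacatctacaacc
Vwf, second probe: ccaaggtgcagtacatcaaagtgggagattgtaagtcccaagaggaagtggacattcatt

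A second set, shown because these members fell together, holds the 250 bases before the transcription start of 3 of them, from RefSeq on GRCm38.p6. They are Tie1 (chr4:118489850-118490099, minus strand), Stab1 (chr14:31168642-31168891, minus strand) and the first of the 3 listed starts of Egfl7 (chr2:26580833-26581082, plus strand). Capitals mark AGGAAG, or CTTCCT where it lies on the other strand. This hexamer holds the core of the site bound by ETS transcription factors, the family of Fli1 and Erg, and it was chosen after the sequences were seen.
Tie1: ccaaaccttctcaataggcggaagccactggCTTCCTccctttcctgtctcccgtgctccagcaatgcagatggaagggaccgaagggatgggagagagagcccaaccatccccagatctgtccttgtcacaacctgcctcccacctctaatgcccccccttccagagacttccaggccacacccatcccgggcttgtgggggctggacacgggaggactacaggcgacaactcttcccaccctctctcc
Stab1: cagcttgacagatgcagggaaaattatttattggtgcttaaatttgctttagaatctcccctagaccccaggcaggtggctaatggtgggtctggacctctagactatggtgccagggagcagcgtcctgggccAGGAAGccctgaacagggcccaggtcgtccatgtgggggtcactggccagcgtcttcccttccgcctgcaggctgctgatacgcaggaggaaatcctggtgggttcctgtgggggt
Egfl7: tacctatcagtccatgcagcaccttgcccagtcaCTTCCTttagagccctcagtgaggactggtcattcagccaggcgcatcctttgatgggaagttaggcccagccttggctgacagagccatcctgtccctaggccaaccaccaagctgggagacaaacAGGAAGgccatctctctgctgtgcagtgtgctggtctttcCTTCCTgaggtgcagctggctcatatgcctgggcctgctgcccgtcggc

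Of the 10 members, 6 had such a window in the table used. The hexamer was in at least 1 window of 4 of them (Tie1, Stab1, Stab2 and Egfl7) and in none of Kdr and Tek. The windows of the 3 Egfl7 starts held 3, 1 and 0 matches, and the one shown holds the most. Of all 27025 genes with a window 32.3% held the hexamer, and of all 32851 windows 29.5%. A match is thus a description of the letters only. The members without a window were Lyve1, Vwf, Pecam1 and Cdh5. The Egfl7 gene also hosts the endothelial microRNA mmu-miR-126a-3p (chr2:26591402-26591423, plus strand, GRCm38.p6), which the arrays did not measure. Its mature sequence from RefSeq has the seed, bases 2 to 8, in capitals.
mmu-miR-126a-3p: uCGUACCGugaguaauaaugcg

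Array 3 stood apart from the others. Across genes, which are not independent replicates, its log2 ratios had a mean r of 0.33 with the rest, while arrays 1, 2 and 4 had 0.51 to 0.65. On array 3 the scanning software marked 7.61% of spots as outliers, against 1.5% to 3.83% elsewhere. The targeted gene Plin2 read 0.24, 0.15, 0.83 and 0.36 as log2 ratios (mean 0.40 ± 0.15, SE, n = 4; limma adjusted p = 0.155) and was above 0 on every array. Ratios are livers labelled Plin2-ASO over control livers, and an exchange of dyes or labels would turn each direction round.

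Of the 10 endothelial markers 5 fell in the livers labelled Plin2-ASO, and the other 5 had negative mean log2 ratios that did not pass the test. Tests here are limma fits across all genes with Benjamini-Hochberg adjustment, and a gene is said to have fallen or risen where its adjusted p was under 0.05. The 5 were Egfl7, Stab1, Tie1, Vwf and Pecam1, 1.45-fold to 2.06-fold lower, and none of the 10 rose, also at an unadjusted p. Over all genes tested 6.08% fell and 3.69% rose. The mean log2 ratio was negative for all 10 members, against 53.8% of all genes, and their median was -0.62, against -0.03 for all genes. These include Tek, which passed the filter on background only through the control livers. Array by array, 10, 10, 6 and 9 of the members were lower in the liver labelled Plin2-ASO, against 54.6%, 53.7%, 49.4% and 51.9% of all genes. In bulk liver, fewer endothelial cells and less RNA per endothelial cell cannot be told apart. Nor can either be told from a change in other cells that express the same genes.

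On every array, 6 members were lower (the 5 that fell and Cdh5), against 19.5% of the 16132 genes measured on all arrays. For 5 members, the same that fell, the highest level in a liver labelled Plin2-ASO was below the lowest level in a control liver, as it was for 10.7% of genes. In the other direction, 14.8% of genes were higher on every array, and for 5.9% every level in a liver labelled Plin2-ASO was above every control level. These shares are descriptions, since the members share a cell type and are not independent of each other.

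**Figure D1:**
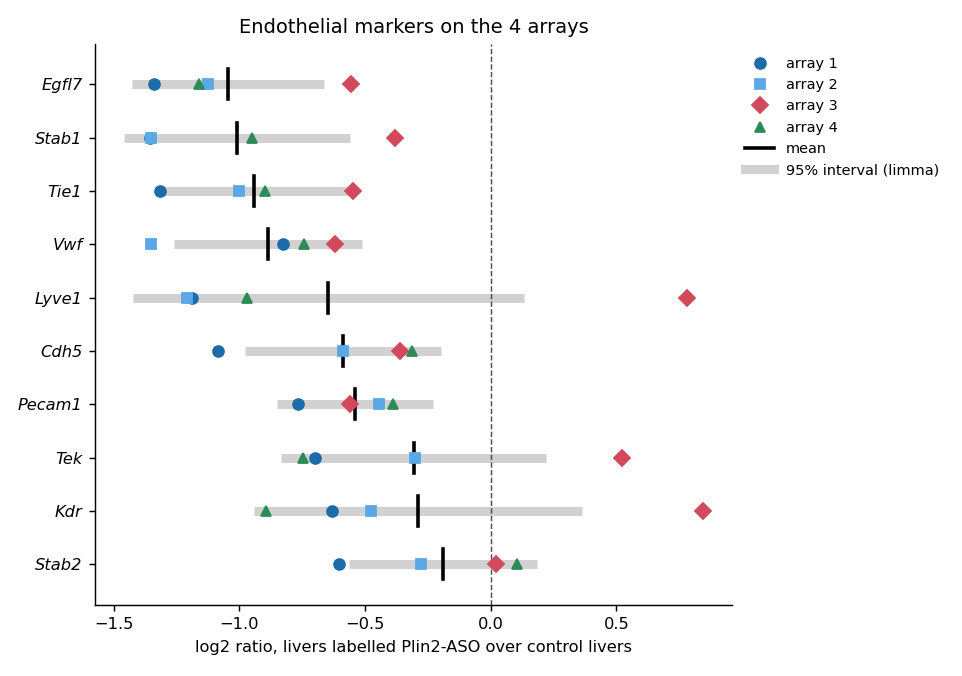
Log2 ratio of each of the 10 endothelial markers (rows) on each array (symbols), livers labelled Plin2-ASO over control livers, with the mean as a black line and its 95% interval from limma as a grey bar. Array 3 (red diamonds) lies at 0.52 to 0.84 for Tek, Lyve1 and Kdr and at -0.62 to -0.36 for the 5 members that fell and Cdh5, while Stab2 lies near 0.

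Among the sinusoidal receptors, Stab1 fell. Its log2 signal was 12.22, 12.38, 12.61 and 12.27 in the livers labelled Plin2-ASO and 13.57, 13.74, 13.00 and 13.22 in the control livers, arrays 1 to 4. Every control liver was above every liver labelled Plin2-ASO, and the 2 groups came closest on array 3. The mean log2 ratio was -1.01 ± 0.19 (SE, n = 4; 2.01-fold lower, adjusted p = 0.0217). Its second probe read -0.70, -0.98, -1.30 and -0.46 on arrays 1 to 4. Both probes of Stab1 were thus lower on every array, although array 3 was the smallest value for one and the largest for the other.

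Stab2, the closest relative of Stab1 and the main receptor that clears hyaluronan in the sinusoid, did not pass. Its log2 signal was 9.95, 10.51, 10.46 and 10.57 in the livers labelled Plin2-ASO and 10.55, 10.78, 10.43 and 10.46 in the control livers. The groups overlapped, and the liver labelled Plin2-ASO of array 1 was the lowest of all 8. The mean log2 ratio was -0.19 ± 0.16 (SE, n = 4; adjusted p = 0.493), with a 95% interval of -0.56 to 0.19. The difference between Stab1 and Stab2 was not tested, since different probes stand for them.

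Lyve1, the hyaluronan receptor shared with lymphatic vessels, split by array. Its log2 signal was 9.04, 9.67, 10.51 and 9.30 in the livers labelled Plin2-ASO and 10.23, 10.87, 9.73 and 10.26 in the control livers. The log2 ratios were -1.19, -1.21, 0.78 and -0.97, so array 3 alone pointed upward. Over 4 arrays the mean was -0.65 ± 0.33 (SE; adjusted p = 0.259), and without array 3 it was -1.12 (adjusted p = 0.000573). Without array 1, 2 or 4 the Lyve1 mean was -0.47, -0.46 and -0.54 (adjusted p = 0.620, 0.604 and 0.496). A second Lyve1 probe read -1.34, -0.90, -0.06 and -0.53 on the same arrays. There the value of array 3 was near 0 rather than high.

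Kdr, the VEGF-A receptor, was also high on array 3 only. Its log2 signal was 9.48, 9.57, 10.62 and 9.33 in the livers labelled Plin2-ASO and 10.11, 10.05, 9.78 and 10.22 in the control livers. The mean log2 ratio was -0.29 ± 0.28 (SE, n = 4; adjusted p = 0.550), and -0.67 without array 3 (adjusted p = 0.00674). Leaving out array 1 or array 4 gave -0.18 (adjusted p = 0.852) and -0.09 (adjusted p = 0.905). The Kdr probe is printed 10 times on each array, and its 10 spots on array 3 read between 0.80 and 0.91, against -0.96 to -0.41 over all its spots on the other arrays. The spots of 1 array share the same pair of RNA samples, so their spread (SD of 0.03 to 0.07 per array) is that of the measurement and not that between mice. A second Kdr probe was not well above background on any array.

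The angiopoietin receptors Tek and Tie1 differed in how well they could be measured. Tek was well above background in 1 liver labelled Plin2-ASO and in 3 control livers, at a log2 signal of 7.45, 7.21, 7.78 and 7.50 in the livers labelled Plin2-ASO and 8.15, 7.51, 7.26 and 8.25 in the control livers. Tek thus passed the filter only through the control livers, so its mean log2 ratios of -0.31 over 4 arrays and -0.58 without array 3 are given as a description. Its other probe was not well above background on any array. Tie1 was above background in all 8 livers, at 9.33, 9.63, 9.78 and 9.38 in those labelled Plin2-ASO and 10.64, 10.63, 10.33 and 10.28 in the controls. The Tie1 levels of the groups did not overlap, and the mean log2 ratio was -0.94 ± 0.16 (SE, n = 4; 1.92-fold lower, adjusted p = 0.0143).

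Egfl7, the secreted matrix protein, had the lowest mean ratio of the 10 members. Its log2 signal was 11.80, 11.92, 12.13 and 11.91 in the livers labelled Plin2-ASO and 13.14, 13.05, 12.69 and 13.07 in the control livers. Without overlap between the groups, the mean log2 ratio was -1.04 ± 0.16 (SE, n = 4; 2.06-fold lower, adjusted p = 0.0114). Vwf, the platelet tether, was at 9.82, 9.89, 10.13 and 9.97 in the livers labelled Plin2-ASO and 10.65, 11.24, 10.75 and 10.71 in the control livers. Its mean log2 ratio was -0.88 ± 0.16 (SE, n = 4; 1.85-fold lower, adjusted p = 0.0181). The second Vwf probe had a mean of -0.56 and was below 0 on every array. In a limma fit of all kept probes it did not pass (adjusted p = 0.0590). The third Vwf probe did not pass the background filter and read 0.35, 0.36, 0.12 and 0.66 on arrays 1 to 4.

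The junction proteins Pecam1 and Cdh5 had smaller ratios. Pecam1 was at 9.51, 9.44, 9.34 and 9.32 in the livers labelled Plin2-ASO and 10.27, 9.88, 9.90 and 9.71 in the control livers. The groups did not overlap, and the mean log2 ratio was -0.54 ± 0.13 (SE, n = 4; 1.45-fold lower, adjusted p = 0.0469). That call lay close to the threshold and was lost under 8 of 14 alternatives that use all arrays, with adjusted p of up to 0.189. Cdh5 was at 9.41, 9.37, 9.48 and 9.11 in the livers labelled Plin2-ASO and 10.49, 9.96, 9.84 and 9.42 in the control livers. It was lower on all 4 arrays but the groups overlapped, and its mean log2 ratio was -0.59 ± 0.17 (SE, n = 4; adjusted p = 0.0706).

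**Figure D2:**
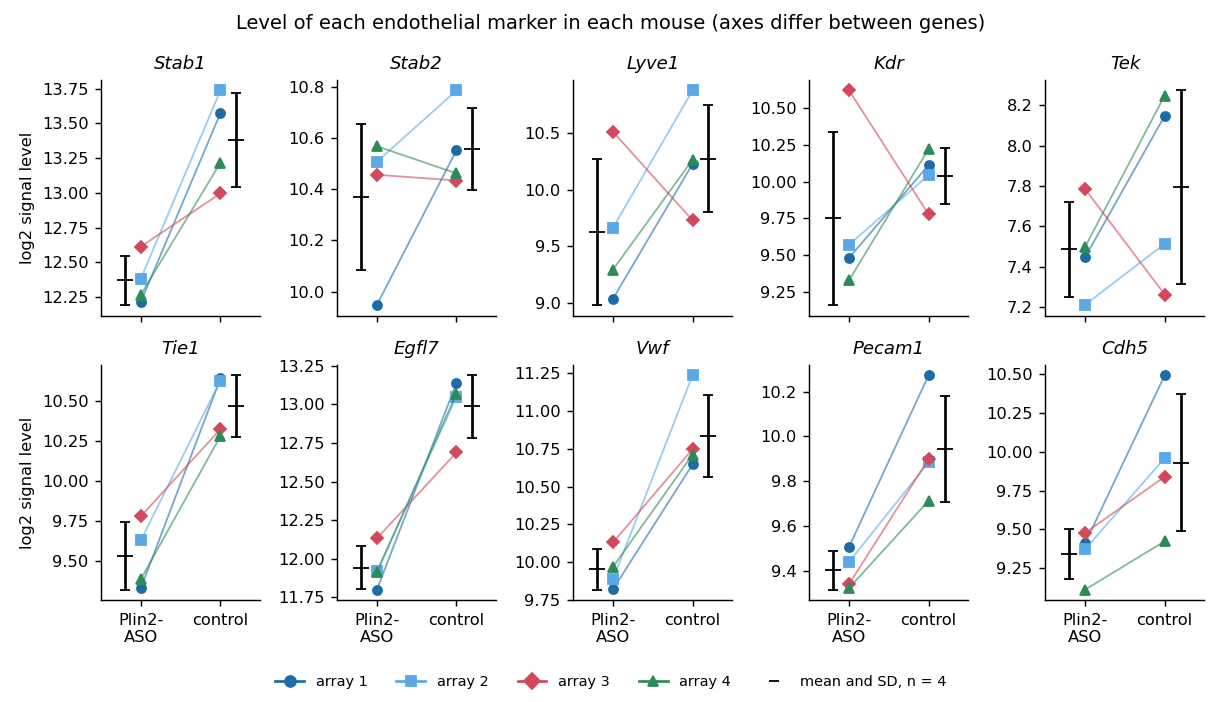
Log2 signal (y axis, scaled separately for each gene) of the 10 endothelial markers in the livers labelled Plin2-ASO (left) and the control livers (right), with lines joining the 2 livers of an array and bars for mean and SD (n = 4). All lines rise to the right for Stab1, Tie1, Egfl7, Vwf, Pecam1 and Cdh5, while the red line of array 3 runs downward for Lyve1, Kdr and Tek.

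How many members passed depended on which array was left out. Without array 1, 0 of 10 fell by limma, where 1.15% of all genes fell. Without array 2 the count was also 0, with 1.24% of all genes. Leaving out array 4 gave 3 (Tie1, Egfl7 and Vwf), with 3.42% of all genes. Leaving out array 3 gave 9, all but Stab2 (-0.26, adjusted p = 0.220), with 20.3% of all genes. Tek, which passed the filter only through the control livers, is 1 of those 9. The median log2 ratio of the members was -0.46, -0.58, -0.82 and -0.63 without arrays 1 to 4, and all 10 means, that of Tek included, were negative each time. The highest adjusted p with an array left out was 0.0880 for Egfl7, 0.108 for Tie1, 0.110 for Vwf, 0.140 for Stab1 and 0.291 for Pecam1.

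On array 3 the member probes were ordered by their base composition. Over the 14 kept probes the log2 ratio of array 3 and the GC content of the probe had a Pearson r of -0.86, against -0.33, -0.40 and -0.12 on arrays 1, 2 and 4. This is a description over probes that share 10 genes and the same RNA, with no test. The 3 probes of 35% GC, for Kdr, Lyve1 and the second probe of Cdh5, read 0.64 to 0.84 on array 3 and -1.21 to -0.48 on the other arrays. Cdh5 thus had 1 probe at -0.36 (45% GC) and 1 at 0.64 (35% GC) on the same array. The 4 members whose probe had a GC content below 45%, Stab2, Lyve1, Kdr and Tek, are also 4 of the 5 that did not pass.

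The same order was present, less steeply, over all kept probes. On array 3 the median log2 ratio was 0.24 for 4747 probes of at most 35% GC and -0.32 for 3252 probes of at least 53% GC, and on array 4 it ran the other way, at -0.26 and 0.19. After each array was corrected for probe GC content by a smooth curve, Kdr, Lyve1, Tek and the second Cdh5 probe still read 0.59, 0.53, 0.44 and 0.39 on array 3. The same correction left 5 members fallen, at 2296 of 18044 genes changed in either direction. The part of base composition in the split between the members was not tested beyond this correction.

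**Figure D3:**
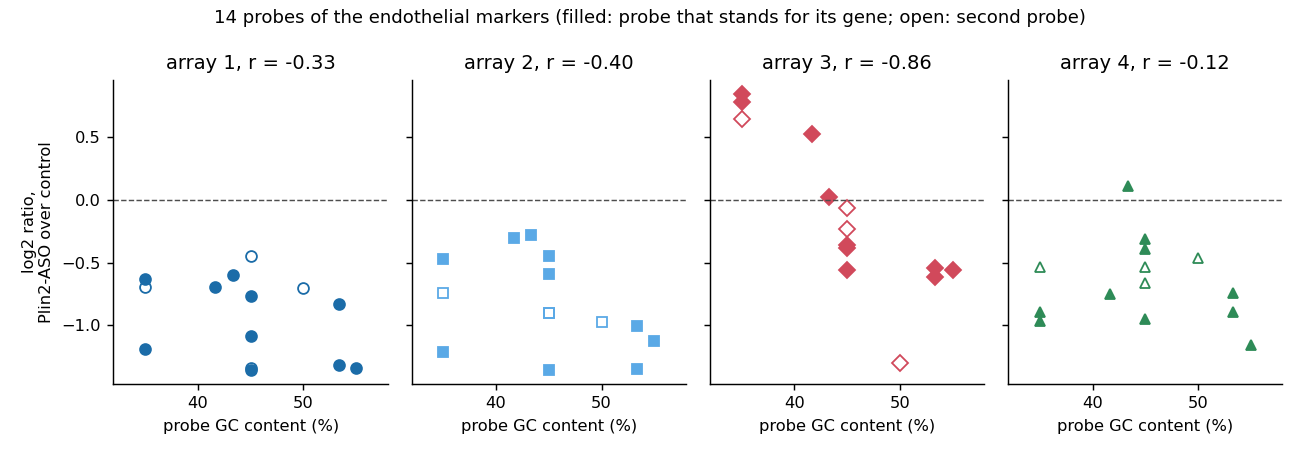
Log2 ratio (y axis, livers labelled Plin2-ASO over control livers) of the 14 kept probes of the endothelial markers against the GC content of the probe in percent (x axis), in a panel for each array, with Pearson r in the title. Filled symbols are the probes that stand for their genes and open symbols are second probes. On array 3 the values run downward from 0.84 at 35% GC (r = -0.86), with no such order on array 4 (r = -0.12).

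Other genes were read from lists of known markers of the same cells and of pathway partners, some of which other liver cells also express. Beside the counts of every list below, 6.08% of all genes fell over 4 arrays, 3.69% rose and 53.8% had a negative mean. Of 14 other sinusoidal markers tested 1 fell, near the share of all genes, 12 had a negative mean and the median was -0.37. Cd209b was higher on all 4 arrays but did not pass (mean 0.46, limma adjusted p = 0.100). Maf, a transcription factor of sinusoidal endothelium and macrophages, was the one that passed, at -0.64 ± 0.13 (SE, n = 4; adjusted p = 0.0247), lower on all 4 arrays, with an adjusted p of up to 0.182 over the alternatives run. On array 3 the median of the list was 0.37, against -0.65, -0.48 and -0.42 on arrays 1, 2 and 4. Without array 3, 8 of the 14 fell, where 20.3% of all genes fell, and the median was -0.55.

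Of 30 other vascular markers 6 fell, with a median of -0.33, and 26 means were negative. Cd93, a C-type lectin-like receptor of endothelium, read -2.54, -2.60, -1.37 and -1.95 on arrays 1 to 4 (mean -2.12 ± 0.22, SE; 4.33-fold lower, adjusted p = 0.00327). Cd34, a sialomucin of vessels and progenitor cells, read -2.46, -2.55, -0.57 and -2.26 (mean -1.96 ± 0.32, SE; adjusted p = 0.0137). The adhesion molecule Icam2 fell by 1.18 ± 0.19 on the log2 scale (adjusted p = 0.0129) and the matrix protein Mmrn2 by 0.97 ± 0.18 (adjusted p = 0.0216). The ETS factor Fli1, which blood cells also express, had -0.98 ± 0.23 (adjusted p = 0.0395), and the venous receptor Ephb4 -0.69 ± 0.15 (adjusted p = 0.0345). These 6 were lower on all 4 arrays, and 19 of the 30 fell without array 3, where 20.3% of all genes fell. Over all alternatives run, arrays left out included, the adjusted p of Cd93 reached 0.0279 and those of the other 5 reached 0.0812 to 0.197. Sele, Mmrn1 and Bmx were above background in at most 1 liver of each group, and Esam was measured on too few arrays.

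**Figure D4:**
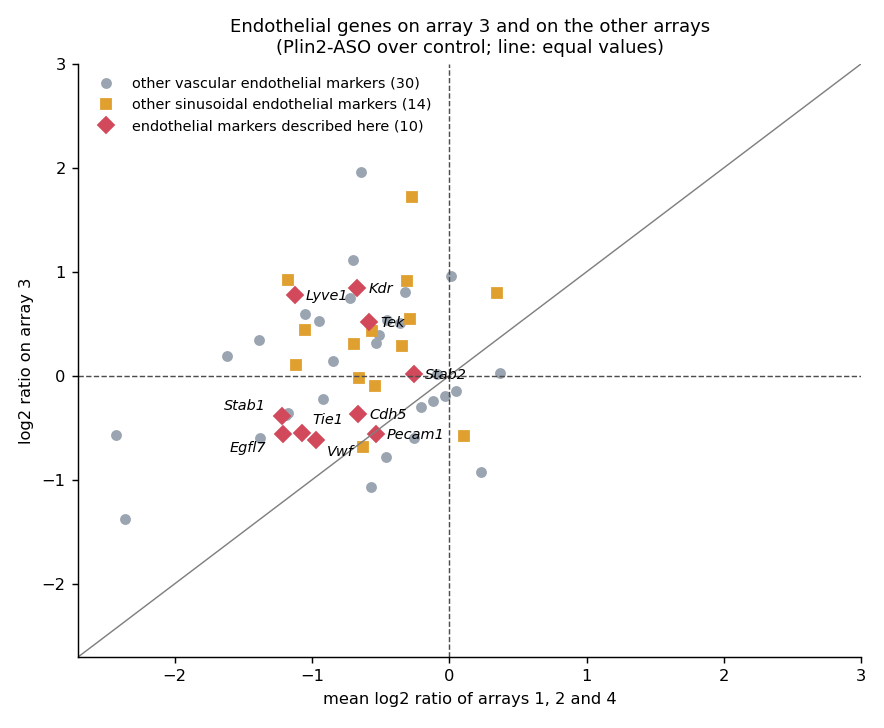
Log2 ratio on array 3 (y axis) against the mean of arrays 1, 2 and 4 (x axis) for the 10 endothelial markers (red, named), 14 other sinusoidal markers (orange) and 30 other vascular markers (grey), with a line of equal values. Among genes measured on every array, 9 of 10, 12 of 14 and 20 of 29 lie above the line, against 55.6% of all genes, and 4, 9 and 13 are above 0 on array 3 while below 0 for the mean of the others, against 26.6% of all genes.

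Ligands of the angiopoietin system changed in both directions. In the angiopoietin list, which holds Tek and Tie1, 2 of 8 genes fell and 1 rose. Angpt2, the ligand that loosens vessels and is made by endothelium, read -1.46, -1.21, -0.72 and -1.69 on arrays 1 to 4 (mean -1.27 ± 0.18, SE; adjusted p = 0.00819). Angpt4, another ligand of Tek, rose by 1.26 ± 0.15 on the log2 scale (SE, n = 4; adjusted p = 0.00485), at 1.38, 0.92, 1.57 and 1.16. Angpt4 was the only gene of that list that stayed under 0.05 in every alternative run, with a highest adjusted p of 0.0436, against 0.0637 for Angpt2. Angpt1 had a mean of -0.33 (adjusted p = 0.148).

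Of 9 VEGF ligands and receptors tested, Vegfd alone passed, a ligand of the lymphatic VEGF receptor in mouse, at -0.94 ± 0.16 (SE, n = 4; adjusted p = 0.0150). It was lower on all 4 arrays, and its adjusted p reached 0.0966 over the alternatives run. The median of the list was -0.19, and 5 of the 9 means were negative. Flt4, the lymphatic VEGF receptor, and Flt1, another receptor of VEGF-A, had means of -0.51 and -0.30 (adjusted p = 0.0702 and 0.540). Without array 3, 5 of the list fell and 1 rose, where 20.3% of all genes fell and 12.4% rose.

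Among 7 hyaluronan receptors and turnover genes tested, Lyve1 and Stab2 included, 2 fell. Cd44, a hyaluronan receptor of leukocytes and many other cells, read -2.15, -2.36, -0.94 and -0.87 (mean -1.58 ± 0.28, SE, n = 4; adjusted p = 0.0172). Hmmr, which binds hyaluronan and also the mitotic spindle, had a mean of -0.65 ± 0.15 (SE, n = 4; adjusted p = 0.0382). Over the alternatives run, the adjusted p reached 0.0994 for Cd44 and 0.242 for Hmmr. The hyaluronan synthases Has1, Has2 and Has3 were above background in at most 2 livers of each group.

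In the list of Notch and BMP9 signalling, 3 of 12 genes fell, Id3, Id1 and Smad6, which the list holds as targets of the BMP pathway. Hey1 and Heyl of the same list did not pass by limma, with means of -0.16 and 0.45 (adjusted p = 0.665 and 0.236). Id3 read -0.86, -0.79, -0.97 and -0.79 on arrays 1 to 4 (mean -0.85 ± 0.12, SE; adjusted p = 0.00884), the steadiest of the 3. Id1 read -1.75, -1.73, -0.32 and -1.72 (mean -1.38 ± 0.26, SE; adjusted p = 0.0210). Smad6, an inhibitor of the same pathway, had a mean of -0.71 ± 0.15 (SE, n = 4; adjusted p = 0.0282). Over the alternatives run, the adjusted p reached 0.0828 for Id3, 0.122 for Id1 and 0.194 for Smad6. The median of the list was -0.25, and 9 of the 12 means were negative. Gdf2, the gene of BMP9 itself, and its receptor Acvrl1 did not pass, with means of 0.03 and -0.20 (adjusted p = 0.944 and 0.516). Notch1, Notch4 and Dll4 had means of -0.35, -0.57 and -0.12 (adjusted p = 0.156, 0.0913 and 0.609). Whether BMP9 signalling changed was not tested.

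Of 13 junction partners of Cdh5 and Pecam1, Jam2 fell by 0.90 ± 0.20 on the log2 scale (SE, n = 4; adjusted p = 0.0334, up to 0.171 over the alternatives run), and the median of the list was -0.10. Jam2 is an adhesion molecule of endothelial tight junctions. The list also holds catenins and tight junction genes that hepatocytes express. None of 5 von Willebrand factor partners passed by limma, and none had an unadjusted p under 0.05. The smallest p among them were those of F8, coagulation factor VIII, made in liver by endothelium (-0.31 ± 0.20, SE, n = 4; adjusted p = 0.368), and Gp1ba, the platelet receptor of Vwf (0.17 ± 0.13, SE, n = 4; adjusted p = 0.426). Without array 3, F8 fell (-0.56, adjusted p = 0.0109).

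Markers of other cell types moved in the same livers, and their part in the endothelial values was not tested. Summed over the 10 members, the linear signal was 13693 to 18782 in the livers labelled Plin2-ASO and 22915 to 32949 in the control livers. That sum follows its brightest probes, those of Stab1 and Egfl7, both of which fell. Their mean log2 signal in the control livers was 13.38 and 12.99, against at most 10.84 for the other members. For Stab2, Lyve1, Kdr, Tek and Cdh5 the levels of the groups overlapped. Sums over a list use only genes measured on all arrays, which leaves Ttr, Rgs5, Krt7 and Cd3d out of the sums of their lists. Hepatocyte markers, which check the labelled tissue, were all above background, with sums of 321477 to 446149 in the livers labelled Plin2-ASO and 532907 to 571674 in the control livers. Of the 8 only Alb, serum albumin, passed (-1.70 ± 0.15, SE, n = 4; adjusted p = 0.00172), and the median was -0.12.

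Of 12 stellate cell and fibroblast markers 5 fell (Col1a1, Col3a1, Dcn, Lum and Lrat), with a median of -0.66, and their sums were 45670 to 62719 in the livers labelled Plin2-ASO and 106187 to 175185 in the control livers. Of 10 Kupffer cell and macrophage markers 5 fell (Cd5l, Csf1r, C1qb, Cd68 and Msr1) and 3 rose (Clec4f, Vsig4 and Marco), with a median of -0.87. The macrophage sums, over 8 of the 10 genes and without Clec4f and Marco, which were measured on 3 arrays, were 38378 to 61951 in the livers labelled Plin2-ASO and 75064 to 133988 in the control livers, and Timd4, a marker of resident Kupffer cells, was above background in 2 livers labelled Plin2-ASO and in no control liver. Among 10 leukocyte markers, S100a9 was one that fell (list median -0.54), with sums of 5037 to 7985 in the livers labelled Plin2-ASO and 8045 to 12163 in the control livers. The endothelial median of -0.62 lay between those of the leukocyte and stellate cell lists.

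Of 5 biliary markers Krt19 and Spp1 fell. The others, Krt7, Sox9 and Cftr, did not pass and had means of 0.32, 0.06 and 0.01, and the list median was 0.01. The biliary sums, without Krt7, were 6946 to 11762 in the livers labelled Plin2-ASO and 22716 to 43017 in the control livers. Of 4 platelet markers Pf4 fell, with sums of 31395 to 113920 in the livers labelled Plin2-ASO and 69618 to 120427 in the control livers. In lymphatic endothelium, whose marker list shares Lyve1 and Flt4 with those above, none of 3 genes passed by limma and 1 had an unadjusted p under 0.05, while Pdpn was above background in no liver. Of 2 erythroid genes Alas2 rose (1.21 ± 0.19, SE, n = 4; adjusted p = 0.0124), with sums of 59722 to 146025 in the livers labelled Plin2-ASO and 51506 to 89478 in the control livers. Neither of 2 mesothelial genes passed by limma, with none at an unadjusted p under 0.05, and Wt1 was above background in no liver.

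Adipocyte markers other than Lep were highest on array 3, though Cfd was above 0 on every array. The median log2 ratio of the 4 tested, Lep included, was 3.03 on array 3, against 0.29, -0.09 and 0.36 on arrays 1, 2 and 4. Their sum was 1360 to 25533 in the livers labelled Plin2-ASO and 923 to 1135 in the control livers. Lep read -0.13 on array 3. Cfd, the fat cell protease adipsin, rose (3.78 ± 0.72, SE, n = 4; adjusted p = 0.0218). Adipoq, singled out after its values were seen, read 4.10 on array 3 and at most 0.52 on the others. Fat tissue is itself rich in vessels, and whether it bears on the high Kdr, Lyve1 and Tek values of array 3 was not tested.

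**Figure D5:**
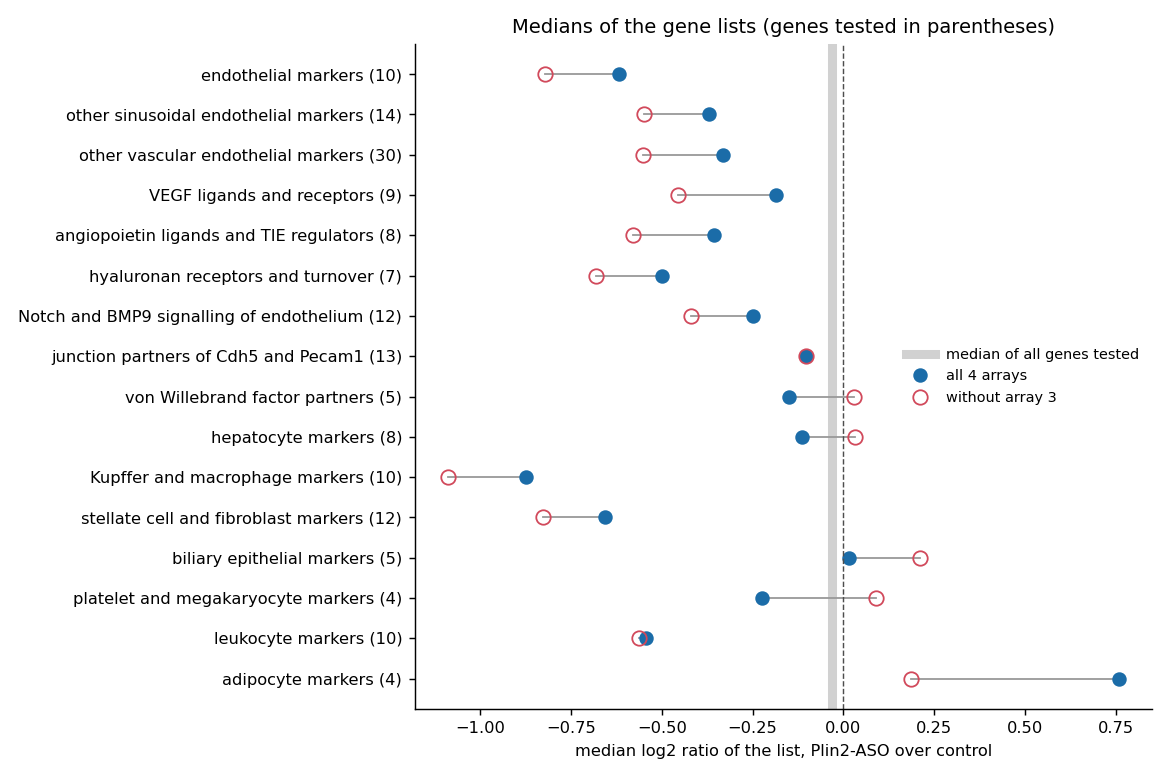
Median log2 ratio (x axis, livers labelled Plin2-ASO over control livers) of each gene list (rows, genes tested in parentheses) over 4 arrays (filled) and without array 3 (open), with the median of all genes as a grey band. The endothelial markers lie at -0.62 and -0.82, the stellate list at -0.66 and -0.83, and the leukocyte list at -0.54 and -0.56. The Kupffer list lies lower, at -0.87 and -1.09. The hepatocyte list lies at -0.12 and 0.03, and the biliary list at 0.01 and 0.21.

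Outside the members, genes whose 4 ratios lay near the median profile of the members (-0.96, -0.80, -0.37 and -0.82 on arrays 1 to 4) included Haghl, Calm3, Depdc1a and Frrs1, the nearest 4 out of 12603 named genes. Their root mean square difference from that profile was 0.020 to 0.076 in log2 units. For the members themselves it was 0.23 for Tie1, the nearest, and 0.65 for Kdr, the farthest.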

How the data were processed

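Liver RNA of 4 mice labelled Plin2-ASO and of 4 control mice was measured on 4 arrays, numbered as in the labels, all on 1 slide and read in 1 scan. Each array was 1 replicate. Per the file headers, the authors used Feature Extraction 9.5.1.1 to obtain spot intensities, and mean signals and median local backgrounds were used as deposited, before background subtraction. The deposited log10 ratios of those files, red over green, and the log2 ratios of the series table, equal to them for all 41174 probes (largest difference 0), served as alternatives with the sign turned.

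Background was removed by normexp with an offset of 50, followed by loess within each array in which control spots (1639 of 45018) had weight 0. The tools were R 4.3.3, limma 3.58.1, statmod 1.5.0 and the data.table package, version 1.17.8. Spots marked as outliers were missing, spots of a probe were averaged, and no spot was saturated. Signal well above background was found for 60.3% to 68.7% of probes in green and 64.9% to 70.5% in red. A probe was kept when well above background on at least 3 arrays in 1 channel (27160 probes), and the brightest kept probe measured on at least 3 arrays stood for its gene (18044 genes, 597 others had too few arrays). The mean log2 ratio was tested against 0 (lmFit with an intercept, eBayes, two-sided), with Benjamini-Hochberg adjustment over all genes and a threshold of 0.05. Levels per liver are log2 signals after loess and Aquantile normalization. Levels of different probes were not compared, but the sums over lists add them on the linear scale, so bright probes weigh most. The fit was tested on simulated data. Names came from the table of GRCm38.p6.

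The members and all gene lists were chosen with earlier results of these data known. All members are named with every probe. Of each pathway list the genes that passed are named, or else the 2 with the smallest p, and other genes were added after their values were seen. Of cell type lists, the sums and counts are given, with genes that passed. Of the genes nearest to the median profile of the members, some are named. Some genes that these rules chose are left out of the text. Alternatives changed 1 step at a time, except that the series table, which has no outlier marks, also kept outlier spots.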

Additional observations from a re-analysis of the deposited data

Results flagged for a closer look

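Of 30 checks on the 4 ratios or the 4 levels of a group, each for 1 member, 2 found a sample far from the other 3, and chance alone gives about 1 in 20. Lyve1 had a log2 ratio of 0.78 on array 3, while arrays 1, 2 and 4 lay between -1.21 and -0.97. The log2 signal of Vwf was 11.24 in the control liver of array 2, against 10.65 to 10.75 in the other control livers. Vwf was lower in the livers labelled Plin2-ASO on every array, that of array 2 included.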

How the results depend on the processing

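With 4 arrays, single arrays decided the counts. Leaving out 1 array at a time gave 352 to 5912 genes changed in all (main value 1762) and 0 to 9 members fallen (main value 5). The lowest counts came without array 1 or 2 and the highest without array 3. The median log2 ratio of the members ranged from -0.82 to -0.46. Weighting arrays by quality estimated from the same data gave 7054 of 18044 genes changed in either direction, 10 members fallen and a median of -0.88. The weights were 2.84, 1.95, 0.216 and 0.838 for arrays 1 to 4. The other 13 alternatives with all arrays gave 4 or 5 members fallen and medians of -0.69 to -0.55, with no member of opposite sign. Egfl7, Tie1, Vwf and Stab1 passed under all 14 such alternatives, and Pecam1 under 6. Requiring signal in both channels on every array removed Tek. Treating the channels as independent samples, with no replicate block for the array, gave 4 members and 1824 genes. The slide as a block was not run, since all arrays lay on 1 slide. The dyes were not exchanged on any array and Plin2 was not lower, so directions rest on the labels alone.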
